A study of Mus musculus with 12 samples.

Results

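T cells and natural killer (NK) cells of the mouse liver were followed here through 36 genes that they are known for, and all 36 were found among the 54532 genes of the deposited count table. The genes were chosen by symbol and encode chains of the T cell receptor, co-receptors, signalling proteins, NK receptors, cytotoxic proteins, transcription factors and cytokine receptors. Each of the 36 passed the filter on low counts and is among the 14686 genes tested. The study asked how ANGPTL8, a secreted protein of liver and fat that takes part in inhibiting lipoprotein lipase, acts on liver lipid metabolism. Livers of wild-type mice on chow were sequenced 9 days after an adenovirus was given, with 3 libraries in each of 4 groups. Ad_GFP received a control virus, ANG8 a virus to overexpress ANGPTL8, shCtrl a virus with a control hairpin and shANG8 a virus with a hairpin to knock ANGPTL8 down. All mice therefore carried an adenovirus, and no uninfected liver was analysed here. The sources used here give no age, sex, strain or viral dose, nor the promoter or species of origin of the transgene. Whether each library is a different mouse is not stated, so p-values measure the spread between these libraries, which may be technical.

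T cells recognise peptides on MHC molecules through a receptor made of alpha and beta chains, which signals through the CD3 chains and the zeta chain. CD8 T cells and NK cells kill target cells by releasing perforin and granzymes and secrete interferon gamma, while CD4 T cells mostly help other immune cells. NK cells carry no T cell receptor and are steered by activating and inhibitory receptors, several of which are lectin-like. The liver is rich in both cell types, and both are known for clearing hepatocytes that carry a virus.

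Libraries held 12537083 to 15144312 counts, and levels are CPM, each count relative to a library size that edgeR's TMM method had scaled. The 8 hepatocyte markers were all detected in every group, with summed levels of 22196 to 75105 CPM per library. Angptl8 was at 96.8, 80.4 and 90.0 CPM in Ad_GFP and at 165, 314 and 172 CPM in ANG8. In shCtrl it was at 340, 391 and 167 CPM, and in shANG8 at 144, 143 and 79.2 CPM, below every shCtrl library. The 2 control groups did not overlap, and shCtrl was the higher of them. The shCtrl libraries overlapped those of ANG8, and the shANG8 libraries overlapped those of Ad_GFP. Measured Angptl8 thus followed the intended direction within each virus and control pair, but not across the 4 groups. Genes of the mitochondrial genome took 39.0%, 43.8% and 22.5% of the counts in the ANG8 libraries and 19.3% to 34.9% in the other libraries.

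Under the ANG8 virus, the constant regions of the T cell receptor, both CD8 chains, granzymes A and B, perforin and the receptors Klrk1 and Klrc1 rose, while Cd4 fell. Of the 36 genes 15 rose (41.7%) and 1 fell, where 7.08% of all tested genes rose and 6.39% fell (edgeR quasi-likelihood test, Benjamini-Hochberg adjusted p under 0.05 over all tested genes). Their median log2 fold change was 0.91, and that of all tested genes was -0.00. In 20 of the 36, all ANG8 libraries lay above all Ad_GFP libraries, which was the case for 17.9% of tested genes. The 36 genes together took 132 to 177 CPM in the Ad_GFP libraries and 314 to 343 CPM in the ANG8 libraries. In whole liver, more cells of a type and more RNA per cell cannot be told apart.

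**Figure D1:**
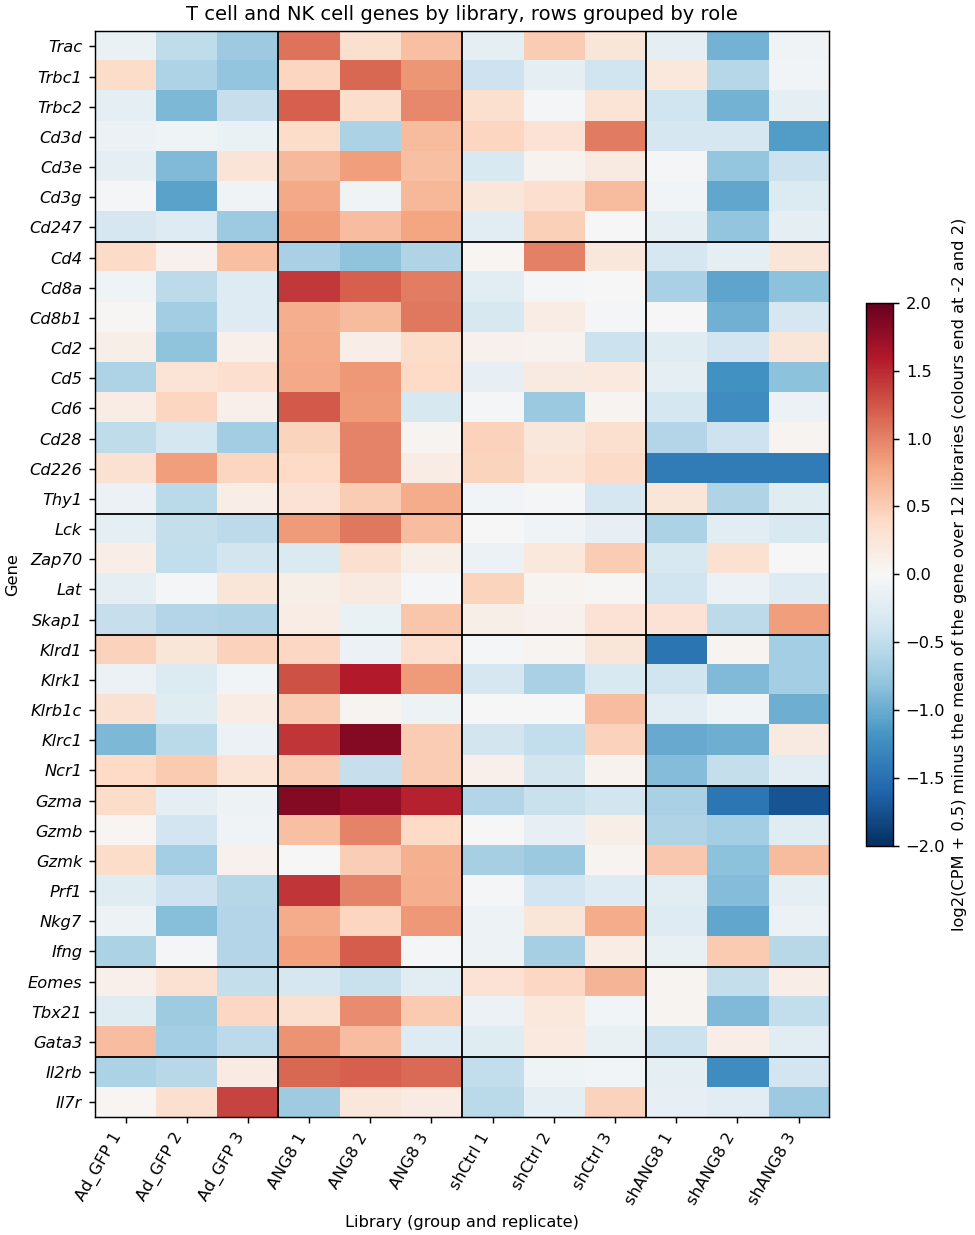
Level of each of the 36 genes (rows, grouped by role) in each of the 12 libraries (columns), as log2(CPM + 0.5) minus the mean of the gene over all libraries. The ANG8 columns are red for most T cell receptor, CD8 and cytotoxic genes and for Klrk1 and Klrc1, and blue for Cd4. Cd226 is blue in the 3 shANG8 columns.

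Promoter sequences are shown for 5 genes that rose. They have the smallest p among risen genes with an entry in the RefSeq promoter collection used here. Il2rb and Trbc2, each with a smaller p than Gzma, had no entry in it. Each sequence is the 250 bases before the start of transcription (RefSeq, GRCm38.p6), 5′ to 3′ along the gene's strand. Capitals mark short core letters known for 6 factor families active in lymphocytes, which were searched on both strands with overlaps allowed.
Cd8a (chr6:71373177-71373426, plus strand): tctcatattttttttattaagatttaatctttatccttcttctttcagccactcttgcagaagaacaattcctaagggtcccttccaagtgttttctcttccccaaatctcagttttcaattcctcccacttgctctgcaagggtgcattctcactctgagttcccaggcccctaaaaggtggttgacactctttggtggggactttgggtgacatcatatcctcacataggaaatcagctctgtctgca
Klrk1 (chr6:129623865-129624114, minus strand): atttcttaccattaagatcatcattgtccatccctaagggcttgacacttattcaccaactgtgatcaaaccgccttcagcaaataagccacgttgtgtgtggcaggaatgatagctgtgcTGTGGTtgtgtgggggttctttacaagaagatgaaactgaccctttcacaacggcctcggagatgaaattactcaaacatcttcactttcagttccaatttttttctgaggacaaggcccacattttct
Lck (chr4:129573642-129573891, minus strand): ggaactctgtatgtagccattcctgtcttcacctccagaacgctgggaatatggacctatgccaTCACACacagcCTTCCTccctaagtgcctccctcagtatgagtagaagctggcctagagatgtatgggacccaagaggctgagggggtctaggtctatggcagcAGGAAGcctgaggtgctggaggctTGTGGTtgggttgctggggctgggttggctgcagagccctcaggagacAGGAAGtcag
Gzma (chr13:113100982-113101231, minus strand): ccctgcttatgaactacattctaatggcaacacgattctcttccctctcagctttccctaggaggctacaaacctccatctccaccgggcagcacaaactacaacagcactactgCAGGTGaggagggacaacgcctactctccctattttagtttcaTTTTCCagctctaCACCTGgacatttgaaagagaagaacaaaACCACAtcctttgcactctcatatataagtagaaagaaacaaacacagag
Prf1 (chr10:61297586-61297835, plus strand): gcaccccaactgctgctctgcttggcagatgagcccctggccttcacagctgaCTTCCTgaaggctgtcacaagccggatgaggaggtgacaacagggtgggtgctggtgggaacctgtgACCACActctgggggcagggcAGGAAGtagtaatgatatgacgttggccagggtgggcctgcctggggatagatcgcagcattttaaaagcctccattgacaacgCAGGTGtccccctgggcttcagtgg
The Cd8a stretch holds none of the letters searched. Klrk1, Lck, Gzma and Prf1 each hold the letters of RUNX factors, TGTGGT read on either strand. Of the 27 promoters of the 23 genes of the set with an entry, 40.7% hold these, against 14.0% of 32851 mouse promoters. The ETS letters AGGAAG stand in 51.9% of the set's promoters and in 29.5% of all mouse promoters. For the T-box letters TCACAC the shares are 29.6% and 12.3%, and for the E protein letters CAGGTG they are 40.7% and 17.2%. The NFAT letters GGAAAA stand in 11.1% against 20.4% of all, and the GATA letters AGATAA in 3.7% against 9.99% of all. The shares cover genes of the set that rose and genes that did not, such as Zap70 and Ncr1. A match describes the letters of the window and no bound site.

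Of the 7 chains of the T cell receptor complex, 4 rose under the ANG8 virus and 3 did not pass. Trbc2 (ENSMUSG00000076498, GRCm38 chromosome 6, 41546730 to 41548352, plus strand), a constant region of the receptor beta chain, was at 13.0, 7.77 and 10.8 CPM in Ad_GFP and at 35.0, 19.3 and 29.6 CPM in ANG8. The groups did not overlap, and the log2 fold change was 1.41 (SE 0.26, adjusted p = 0.00212). Trac (ENSMUSG00000076928, chromosome 14, 54220521 to 54224206), the constant region of the alpha chain, went from 7.40, 5.63 and 4.77 CPM to 17.9, 10.3 and 12.6 CPM (1.20, SE 0.29, adjusted p = 0.0125). Here too each ANG8 library lay above each Ad_GFP library. Trbc1, the other beta constant region, was at 13.9, 6.81 and 5.99 CPM in Ad_GFP and at 14.6, 24.3 and 20.1 CPM in ANG8 (1.14, SE 0.30, adjusted p = 0.0184). Its groups were separated narrowly, because Ad_GFP replicate 1 came close to ANG8 replicate 1. Trbc1 and Trbc2 shared 40.5% and 44.0% of their 50-base sequences with each other, so the split of reads between them is uncertain. Cd247, the zeta chain that carries most of the complex's signalling motifs, went from 2.34, 2.52 and 1.68 CPM to 5.94, 4.9996 and 5.70 CPM (1.35, SE 0.34, adjusted p = 0.0145). Cd247 overlaps Pou2f1 on the opposite strand, and whether the counting used strand is not known here.

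The CD3 chains delta, epsilon and gamma did not pass the test. Cd3e had a log2 fold change of 0.99 (SE 0.35, adjusted p = 0.0709) and passed with DESeq2 (0.0401), with voom (0.0388) and without Ad_GFP replicate 3 (0.0369). Cd3g had one of 0.88 (SE 0.35, adjusted p = 0.101) and passed with no filter on low counts (0.0450). Cd3d, at 2.47, 2.52 and 2.42 CPM in Ad_GFP, was at 3.62, 1.56 and 4.49 CPM in ANG8 (0.39, SE 0.41, adjusted p = 0.589). ANG8 replicate 2 was the lowest of its group for Trac, Trbc2, Cd3d, Cd3g and Cd247 and the highest for Trbc1, Cd3e, Klrk1, Klrc1, Gzmb, Lck, Cd28 and Ifng. That library also had the highest mitochondrial share, 43.8%. With this share as a covariate 15 genes of the set again rose, Cd3g (adjusted p = 0.0338) and Thy1 (0.0383) now among them and Klrc1 (0.0594) and Cd28 (0.172) not.

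Among co-receptors and surface molecules, the CD8 chains and Cd28 rose and Cd4 fell, and the other 5 did not pass. Cd8a (ENSMUSG00000053977, chromosome 6, 71373427 to 71379173, plus strand), the alpha chain of CD8 on cytotoxic T cells and on some dendritic cells, was at 13.5, 9.92 and 11.97 CPM in Ad_GFP and at 39.5, 33.8 and 29.9 CPM in ANG8. Each ANG8 library stood at more than any of the other 9 libraries, and no other gene of the set had a smaller p (log2 fold change 1.54, SE 0.19, adjusted p = 0.000111). Cd8b1 (chromosome 6, 71322788 to 71337494), the beta chain found on T cells, went from 6.58, 3.78 and 5.31 CPM to 10.9, 10.2 and 14.0 CPM (1.16, SE 0.29, adjusted p = 0.0141). Cd28, the receptor for costimulation by B7 molecules, went from 1.08, 1.26 and 0.874 CPM to 2.54, 3.93 and 1.82 CPM (1.36, SE 0.44, adjusted p = 0.0482). The Cd28 groups did not overlap, but its adjusted p lay close to the threshold.

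Cd4 (ENSMUSG00000023274, chromosome 6, 124864692 to 124888221, minus strand), the co-receptor of helper T cells, was at 6.58, 5.26 and 7.73 CPM in Ad_GFP and at 2.97, 2.62 and 3.09 CPM in ANG8. It was the only gene of the 36 that fell (log2 fold change -1.17, SE 0.31, adjusted p = 0.0209). All 3 ANG8 libraries lay below the other 9 libraries, whose lowest value was 3.79 CPM in shANG8 replicate 1. The fall did not pass without Ad_GFP replicate 1 (adjusted p = 0.0575), Ad_GFP replicate 3 (0.0723), ANG8 replicate 1 (0.0662) or ANG8 replicate 2 (0.0714), nor with the mitochondrial share as a covariate (0.0699). Per base of gene length, the ratio of Cd8a to Cd4 within a library, which does not depend on the scaling of libraries, was 2.28, 2.09 and 1.72 in Ad_GFP and 14.8, 14.3 and 10.7 in ANG8. In shCtrl it was 2.71, 1.51 and 2.74, and in shANG8 it was 2.64, 1.75 and 1.49. The ratio of Cd8b1 to Cd4 was 10.01, 10.6 and 12.3 in ANG8 and 1.87 to 4.68 in the other 9 libraries. Both ratios thus set ANG8 apart with no overlap, while the remaining groups overlapped each other.

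**Figure D2:**
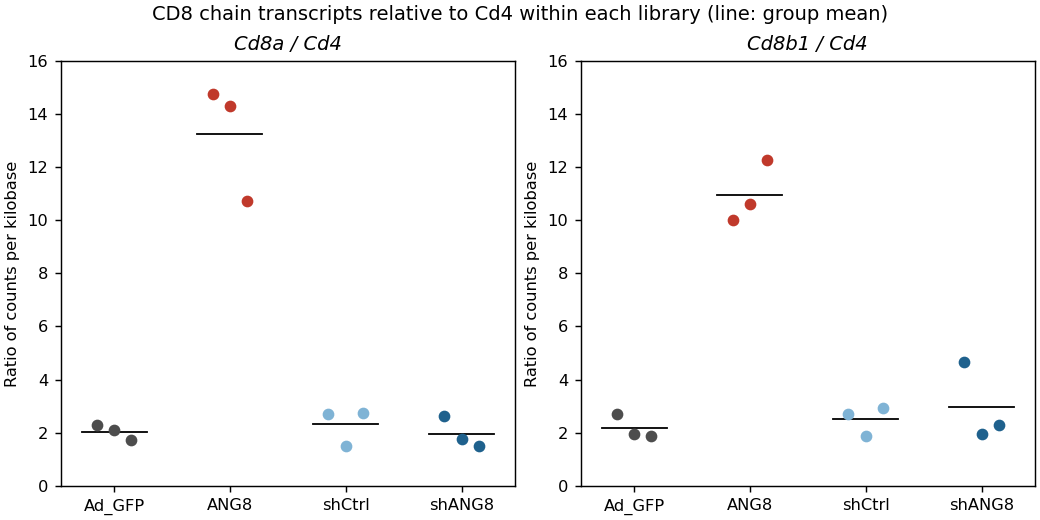
Ratio of counts per kilobase of gene length of Cd8a to Cd4 (left) and of Cd8b1 to Cd4 (right) in each library, with points for libraries and lines for group means. The ANG8 libraries sit between 10.01 and 14.8, and the other libraries between 1.49 and 4.68.

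The other surface molecules differed less. Thy1, a surface protein of mouse T cells that nerve cells and fibroblasts also carry, was at 10.1, 7.33 and 11.97 CPM in Ad_GFP and at 13.5, 15.7 and 18.7 CPM in ANG8 (0.71, SE 0.25, adjusted p = 0.0667). Cd2, an adhesion receptor, and Cd5 and Cd6, scavenger-type receptors that temper T cell receptor signals, had log2 fold changes of 0.65, 0.73 and 0.55 with adjusted p-values of 0.266, 0.285 and 0.495. Cd226, an activating receptor of NK and T cells also called DNAM-1, was at 1.14, 1.85 and 1.28 CPM in Ad_GFP and at 1.23, 2.13 and 0.971 CPM in ANG8 (0.02, SE 0.56, adjusted p = 0.991).

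Of the 4 signalling proteins, Lck rose and 3 did not pass. Lck (ENSMUSG00000000409, chromosome 4, 129548344 to 129573641, minus strand), the kinase that binds the tails of CD4 and CD8 and phosphorylates the CD3 chains, was at 7.72, 6.22 and 5.99 CPM in Ad_GFP and at 16.4, 18.9 and 13.8 CPM in ANG8 (1.30, SE 0.21, adjusted p = 0.00106). Zap70, the kinase that docks on the phosphorylated chains next, was at 10.5, 6.66 and 7.26 CPM in Ad_GFP and at 7.75, 11.97 and 10.4 CPM in ANG8 (0.30, SE 0.26, adjusted p = 0.503). Lat, the adaptor that Zap70 phosphorylates, had a log2 fold change of 0.08 (SE 0.27, adjusted p = 0.887). The Lck groups were far apart, whereas those of Zap70 and Lat overlapped. Skap1, an adaptor that links the receptor to integrins, had one of 1.05 (SE 0.49, adjusted p = 0.170).

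Of the 5 NK receptors, Klrk1 and Klrc1 rose and the 3 others did not pass. Klrk1 (ENSMUSG00000030149, chromosome 6, 129610323 to 129623864, minus strand), the activating receptor NKG2D of NK cells and CD8 T cells, was at 7.78, 6.89 and 8.07 CPM in Ad_GFP and at 21.1, 26.4 and 15.6 CPM in ANG8 (1.47, SE 0.23, adjusted p = 0.000803). Every ANG8 library lay above all others. Klrc1, the inhibitory receptor NKG2A, went from 0.696, 1.04 and 1.55 CPM to 5.50, 7.46 and 2.67 CPM (2.24, SE 0.55, adjusted p = 0.0131), the highest fold of the set. It shared 38.6% of its 50-base sequences with Klrc2 and Klrc3 and is uncertain. Klrd1, the CD94 chain with which NKG2A pairs at the cell surface, was at 3.67, 3.11 and 3.70 CPM in Ad_GFP and at 3.55, 2.29 and 3.34 CPM in ANG8 (-0.19, SE 0.41, adjusted p = 0.814). Its groups overlapped, and the per-length ratio of Klrk1 to Klrd1 was 0.378 to 0.395 in Ad_GFP, 0.833 to 2.05 in ANG8, 0.348 to 0.468 in shCtrl and 0.288 to 1.85 in shANG8, so that ANG8 and shANG8 overlapped.

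The receptors most tied to NK cells were scarce. Ncr1, the NK receptor NKp46, had 9 to 11 counts per library in Ad_GFP and 2 to 13 in ANG8 (-0.25, SE 0.80, adjusted p = 0.879). Klrb1c, the antigen NK1.1, had 6 to 14 counts in Ad_GFP and 8 to 15 in ANG8 (0.13, SE 0.71, adjusted p = 0.931), and shared 16.98% of its 50-base sequences with related genes. Neither gene showed a detectable difference at this depth.

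Of the 6 cytotoxic effector genes, counted with interferon gamma, 4 rose and 2 did not pass. Gzma (ENSMUSG00000023132, chromosome 13, 113093825 to 113100981, minus strand), the tryptase granzyme A, was at 3.73, 2.37 and 2.56 CPM in Ad_GFP and at 11.2, 10.6 and 9.04 CPM in ANG8 (1.82, SE 0.35, adjusted p = 0.00259). Prf1, which encodes the pore-forming perforin, went from 2.09, 1.78 and 1.55 CPM to 7.68, 5.57 and 4.55 CPM (1.71, SE 0.36, adjusted p = 0.00477). Nkg7, a membrane protein of cytotoxic granules, went from 13.5, 7.85 and 9.55 CPM to 24.8, 19.7 and 27.0 CPM (1.21, SE 0.27, adjusted p = 0.00878). In all of these the groups were apart. Gzmb, granzyme B, which activates caspases in the target cell, went from 11.3, 8.29 and 10.5 CPM to 17.02, 22.4 and 14.7 CPM (0.84, SE 0.22, adjusted p = 0.0161). The rise of Gzmb was the smallest of the 15. Ifng, interferon gamma itself, had 8, 14 and 8 counts in Ad_GFP and 31, 38 and 17 in ANG8 (1.61, SE 0.63, adjusted p = 0.0994). It shared 19.9% of its 50-base sequences with Gm49751. Gzmk, granzyme K, had overlapping groups (0.57, SE 0.58, adjusted p = 0.569).

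None of the 3 transcription factors passed by edgeR (0 at an unadjusted p under 0.05). Tbx21, the T-bet of type 1 lymphocytes, had a log2 fold change of 0.94 (SE 0.53, adjusted p = 0.271). Eomes, its relative in NK and memory CD8 cells, had -0.57 (SE 0.60, adjusted p = 0.596), and Gata3, a factor of T cell development and type 2 lymphocytes, had 0.80 (SE 0.66, adjusted p = 0.477). The 2 cytokine receptor genes pointed in opposite directions. Il2rb (ENSMUSG00000068227, chromosome 15, 78479256 to 78495271, minus strand), the beta chain that binds interleukins 2 and 15, was at 8.98, 9.55 and 16.01 CPM in Ad_GFP and at 32.2, 33.4 and 32.0 CPM in ANG8 (1.497, SE 0.26, adjusted p = 0.00172). Il7r, the interleukin 7 receptor of resting T cells, was at 0.949, 1.26 and 3.09 CPM in Ad_GFP and at 0.362, 1.15 and 1.09 CPM in ANG8 (-1.02, SE 0.66, adjusted p = 0.341). Its groups overlapped, and Ad_GFP replicate 3 stood above the rest.

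**Figure D3:**
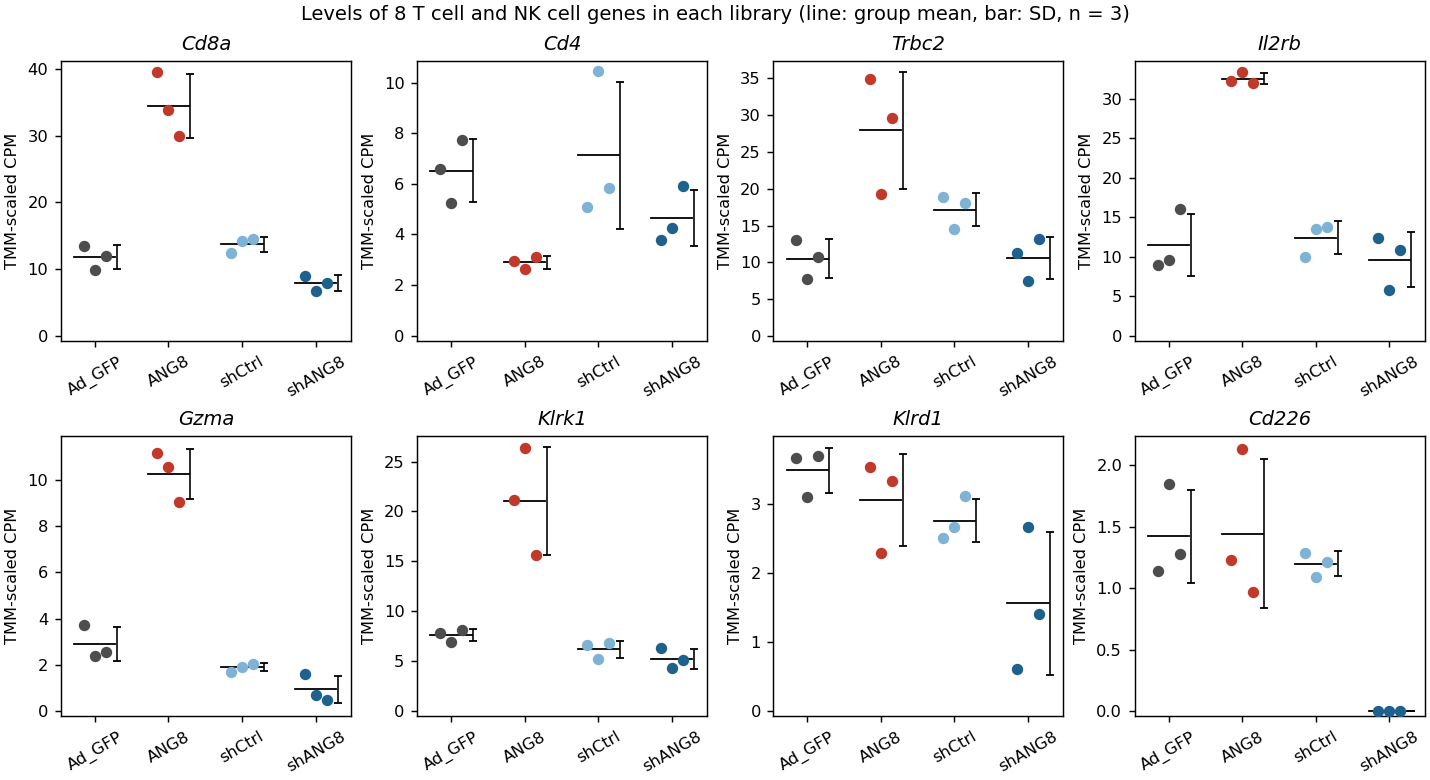
TMM-scaled CPM of 8 genes in each library, with points for the 3 libraries of a group, a line for the group mean and a bar for the SD. Cd8a, Trbc2, Il2rb, Gzma and Klrk1 are higher in all ANG8 than in all Ad_GFP libraries, Cd4 is lower, Klrd1 overlaps, and Cd226 is at 0 in the 3 shANG8 libraries.

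Of the 15 rises, 8 passed under each of 20 other settings: Trbc2, Cd8a, Lck, Klrk1, Gzma, Prf1, Nkg7 and Il2rb. Leaving out single libraries ended the calls of Trac (ANG8 replicate 1, adjusted p = 0.0784), Cd247 (Ad_GFP replicate 3, 0.0546; ANG8 replicate 1, 0.0549), Cd8b1 (Ad_GFP replicate 2, 0.0657; ANG8 replicate 3, 0.0590) and Gzmb (Ad_GFP replicate 2, 0.0720; ANG8 replicate 2, 0.0812). Trbc1 lost its call without Ad_GFP replicate 2 (0.0805), without Ad_GFP replicate 3 (0.0729) and without ANG8 replicate 2 (0.0767). Klrc1 did not pass without Ad_GFP replicate 1 (0.0628), ANG8 replicate 2 (0.0643) or with the mitochondrial share as a covariate (0.0594). Cd28 passed in 7 of 20 settings (highest adjusted p = 0.198, without ANG8 replicate 2).

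Levels per kilobase of gene length were highest for the beta constant regions and Nkg7. In ANG8, Trbc2 stood at 40.4 ± 11.5 CPM per kilobase (SD, n = 3), Trbc1 at 26.2 ± 6.45, Nkg7 at 26.1 ± 4.11, Trac at 14.6 ± 4.15, Gzmb at 12.6 ± 2.75, Gzma at 10.2 ± 1.09 and Cd8a at 9.47 ± 1.33. Trbc1 and Nkg7 did not differ beyond their spread, nor did Trac and Gzmb. In Ad_GFP, Gzma stood at 2.87 ± 0.735 and Gzmb at 6.97 ± 1.07. The per-length ratio of Gzma to Gzmb was 0.348 to 0.473 in Ad_GFP, 0.675 to 0.935 in ANG8, 0.219 to 0.279 in shCtrl and 0.0763 to 0.322 in shANG8.

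Under the shANG8 virus, Cd226 fell and no other gene of the set passed the test in either direction. Cd226 (ENSMUSG00000034028, GRCm38 chromosome 18, 89197431 to 89270201, plus strand) had 19, 16 and 16 counts in the shCtrl libraries and 0, 0 and 0 in the shANG8 libraries, against 16 to 26 counts in the 9 libraries of the other groups. With 3 counts per library as the limit that 0 counts allow, its level was at least 5.34-fold lower than in shCtrl (edgeR adjusted p = 0.00863). This limit covers counting error only. It was the only gene of the table with 0 counts in all shANG8 libraries and at least 10 counts in each of the other 9. The tested genes on either side on chromosome 18 did not pass, with log2 fold changes of -0.31 for Socs6, -0.32 for Rttn and -0.18 for Tmx3 (adjusted p = 0.712, 0.933 and 0.862). The call of Cd226 did not pass when the fit held the shCtrl and shANG8 libraries alone (adjusted p = 0.1001).

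The remaining values under the shANG8 virus, each taken against shCtrl, lay mostly below 0. Of the 36 genes, 1 fell and 0 rose by edgeR, where 0.129% of tested genes fell and 0.0613% rose. DESeq2 called 2 lower and 0 higher, and voom 1 lower and 0 higher. At an unadjusted p under 0.05, 9 were lower and 0 higher, against 4.14% and 3.79% of tested genes. Their median log2 fold change was -0.55, also with Cd226 at its bound, against 0.01 for all tested genes. In 14 of the 36 every shANG8 library lay below every shCtrl library, as in 6.78% of tested genes, and in 0 every one lay above, against 6.16%. Cd8a was at 12.4, 14.3 and 14.4 CPM in shCtrl and at 9.02, 6.69 and 7.94 CPM in shANG8 (-0.80, SE 0.19, adjusted p = 0.160). It was the gene that DESeq2 called besides Cd226 (adjusted p = 0.0334). Gzma was at 1.70, 1.91 and 2.05 CPM in shCtrl and at 1.59, 0.708 and 0.492 CPM in shANG8 (-1.02, SE 0.40, adjusted p = 0.524). Cd3d, at 3.80, 3.42 and 6.08 CPM in shCtrl, was at 2.05, 2.05 and 0.984 CPM in shANG8 (-1.39, SE 0.42, adjusted p = 0.341). These groups did not overlap, yet none of the differences passed by edgeR. Against this, Gzmk had the highest value of the set, 0.92 (SE 0.60, adjusted p = 0.752). Together the 36 genes took 175 to 209 CPM in shCtrl, 111 to 153 CPM in shANG8 and 132 to 177 CPM in Ad_GFP. The shANG8 libraries thus overlapped those of Ad_GFP in this sum. Trbc2 had means of 10.5 CPM in Ad_GFP, 17.2 in shCtrl and 10.6 in shANG8, while Cd8a had 11.8, 13.7 and 7.88 CPM. A difference between shANG8 and Ad_GFP was not tested.

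**Figure D4:**
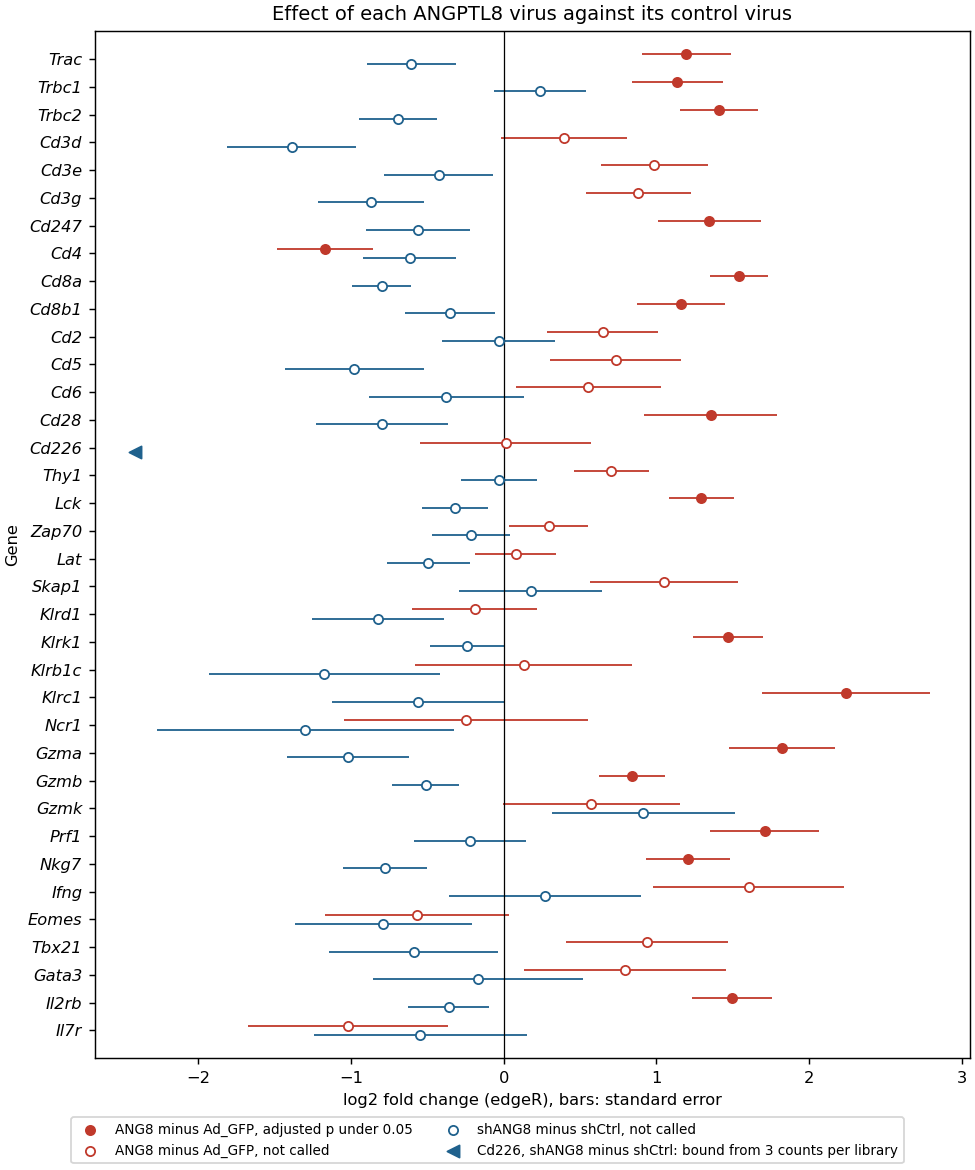
Log2 fold change with its standard error for each gene, ANG8 minus Ad_GFP in red and shANG8 minus shCtrl in blue, with filled points for calls and an arrowhead for the bound of Cd226 from 3 counts per library. Most red points lie right of 0 and most blue points left of it, and Cd4 is the called red point on the left.

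The effects of both ANGPTL8 viruses were then compared directly, as ANG8 minus Ad_GFP against shANG8 minus shCtrl, which share no libraries. This difference also holds any offset of shCtrl from Ad_GFP, for which the values of the control viruses follow below. For 16 of the 36 genes the effect of the ANG8 virus was higher than that of the shANG8 virus, and for 0 it was lower (0 by DESeq2, 0 by voom, and 0 before adjustment at a p under 0.05), where 3.72% and 2.90% of tested genes differed. The median difference was 1.46 on the log2 scale, also with Cd226 at its bound, against -0.01 for all tested genes. Cd8a differed by 2.34 (SE 0.27, adjusted p = 0.000509), Gzma by 2.84 (SE 0.53, adjusted p = 0.00544) and Trbc2 by 2.10 (SE 0.36, adjusted p = 0.00327). For Cd4, which fell under the ANG8 virus and did not pass under the shANG8 virus (-0.62, SE 0.31, adjusted p = 0.652), the difference did not pass (-0.55, SE 0.44, adjusted p = 0.505). The count fell to 9 without ANG8 replicate 1, to 9 without shCtrl replicate 2 and to 10 without shANG8 replicate 2.

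Between the control viruses, shCtrl minus Ad_GFP, edgeR called 0 of the 36 genes and 0 of all tested genes (0% up and 0% down). At an unadjusted p under 0.05, 5 of the 36 were higher in shCtrl (Trac, Trbc2, Cd3g, Cd28 and Nkg7) and 0 lower, against 4.23% and 4.53% of tested genes, and DESeq2 and voom called 0 of the 36. Libraries of shCtrl all lay above those of Ad_GFP for 8 genes and below for 4, against 7.66% and 8.45% of tested genes. The median was 0.20, against -0.02 for all tested genes. Nkg7 was at 13.6, 17.2 and 24.7 CPM in shCtrl, above every Ad_GFP library (0.84, SE 0.27, adjusted p = 0.442). Gzma lay lower in every shCtrl than in every Ad_GFP library (-0.62, SE 0.36, adjusted p = 0.628). This comparison shares its libraries with both others.

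Further genes of the pathways were read from lists named by function, beside which 7.08% of all tested genes rose and 6.39% fell under the ANG8 virus, with a median of -0.00. Of 24 tested genes of T cell receptor signalling, 7 rose and 0 fell under the ANG8 virus (median 1.08), among them the adaptors Fyb (1.41, SE 0.21, adjusted p = 0.000562) and Lcp2 (1.39, SE 0.22) and the exchange factor Vav1 (1.37, SE 0.25), all of which myeloid cells also use. Of 12 tested NK receptors and adaptors, 4 rose and 0 fell (median 1.21), and the 3 with the smallest p, Fcer1g (1.41, SE 0.24), Fcgr3 (1.31, SE 0.26) and Tyrobp (1.13, SE 0.23), are also used by macrophages. Of 11 tested granule and effector genes, 4 rose and 0 fell (median 0.85). They were the granzyme B inhibitor Serpinb9 (1.17, SE 0.22), the granule priming factor Unc13d (1.25, SE 0.25), the cathepsin Ctsw of cytotoxic cells (0.92, SE 0.22) and the granule proteoglycan Srgn (1.28, SE 0.38). Ctsw also fell under the shANG8 virus, from 6.45, 9.29 and 7.52 CPM to 2.73, 3.38 and 3.73 CPM (-1.24, SE 0.23, adjusted p = 0.0334). It was the only gene of these 8 lists called there, where 0.129% of all tested genes fell and 0.0613% rose.

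In the lists of regulators and receptors the calls were fewer. Of 14 tested lymphocyte transcription factors 1 rose, Zeb2 (1.22, SE 0.26), and 1 fell, shares near those of all tested genes. Of 10 homing and residency genes, 2 rose and 0 fell: Cd44, an adhesion receptor of activated lymphocytes and other cells (1.47, SE 0.23), and Cxcr6, a chemokine receptor of lymphocytes that stay in liver (1.78, SE 0.57). Of 14 tested genes of the interleukin 2, 7, 12, 15 and 18 axis, 3 rose and 1 fell, with Socs1, a brake on cytokine signals (1.21, SE 0.33), Il21r (1.20, SE 0.35) and the common gamma chain Il2rg (0.91, SE 0.28) higher and Il15ra, a receptor chain for interleukin 15, lower (-0.71, SE 0.23). Of 7 interferon gamma axis genes, 3 rose and 0 fell, among them Ifngr2, a receptor chain (0.67, SE 0.19), and the signal transducer Stat4 (1.52, SE 0.49). Of 6 tested genes of gamma delta and innate-like T cells, edgeR called 0 (0 at an unadjusted p under 0.05; median -0.02). In these 8 lists under the shANG8 virus, 0 genes rose, near the 0.0613% of all tested genes that rose there.

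Markers of other cells moved with the set under the ANG8 virus, where 7.08% of all tested genes rose and 6.39% fell. Among 12 genes that mark macrophages and Kupffer cells, 9 rose and 0 fell, and their summed level was 454 to 635 CPM in Ad_GFP and 1075 to 1425 CPM in ANG8. Of 8 genes shared by leukocytes 7 rose, at 154 to 205 against 353 to 358 CPM in sum, and of 6 proliferation genes 2 rose, at 62.0 to 81.6 against 145 to 201 CPM. Of 8 hepatocyte markers 4 fell and 0 rose, at 38948 to 58531 against 22196 to 48204 CPM. EdgeR called 0 of 9 tested B and plasma cell markers, at 47.1 to 70.5 against 38.0 to 45.8 CPM, and 0 of 8 endothelial markers, at 81.9 to 99.7 against 95.7 to 102 CPM (0 and 1 at an unadjusted p under 0.05). Dendritic cell markers, of which edgeR called 0 of 6 tested (2 at an unadjusted p under 0.05, Clec9a at 0.84 and Xcr1 at 1.17), summed to 24.7 to 35.98 CPM in Ad_GFP and 36.2 to 57.1 CPM in ANG8, with no overlap. Neutrophil markers, of which it called 0 of 4 tested (0 at an unadjusted p under 0.05), summed to 16.6 to 37.6 CPM and 29.97 to 40.6 CPM, with Ly6g and Mpo at 0 in ANG8 and in shCtrl. Rag1 and Rag2 of immature lymphocytes were at 0 in both groups. Under the shANG8 virus edgeR called 0 of these markers, where 0.129% of all tested genes fell and 0.0613% rose. An unadjusted p under 0.05 was reached by 3 of 4 tested neutrophil markers, whose median was -1.11. It was also reached by 2 of 12 macrophage and Kupffer cell markers, which were higher in shANG8 (Marco at 1.71 and Vsig4 at 1.07). Of these 12 markers 9 had values above 0 and 3 below, with a median of 0.29. Among 8 leukocyte genes 2 reached it, and the values of all 8 ran from -0.79 to 0.09. Of all tested genes, 4.14% were lower and 3.79% higher at that level. The summed neutrophil markers were at 22.3 to 23.8 CPM in shCtrl and at 9.91 to 13.8 CPM in shANG8. The part of these cells in the levels of the 36 genes was not tested.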

How the data were processed

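Total RNA came from Trizol extraction and was sequenced after the NEBNext Ultra RNA kit, per the labels' protocols. The authors deposited raw counts per gene for 12 libraries. Per the submitters' processing notes the tools were CASAVA 1.8.2 and featureCounts 1.5.0-p3, with mm9 as the build. No aligner, strand setting or annotation release is stated. All 36 identifiers are in GENCODE vM21 and 34 have identical coordinates there, so positions are given as GRCm38 (those of Cd226 as deposited). The deposited table's gene length in bases, a value of another kind that the authors deposited beside the counts, was used for levels per kilobase.

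Counts were filtered with filterByExpr, scaled by TMM and fitted with edgeR 4.0.16 (robust quasi-likelihood, R 4.3.3) over all 12 libraries. The SE is the absolute log2 fold change over the square root of F. Benjamini-Hochberg adjustment covered every tested gene, with calls at 0.05. The fit was tested on simulated data. Over all tested genes, replicates differed by more than counting noise (mean chi-square per gene 13.6 to 143). This mean was not taken for the 36 genes alone. The members and lists were chosen with earlier results of these data known. All 36 members were described, and up to 3 genes of each list with the smallest p under overexpression were named. Some genes that this rule names are not reported here. Srgn, Il15ra, the markers named as being at 0, the neighbours of Cd226 and Angptl8 are outside that rule. Alternatives were DESeq2 1.42.0, limma 3.58.1 voom, RLE size factors, no filter, other fits and leaving out each library. Shared sequence was counted as 50-base stretches found in GENCODE vM21 transcripts of other genes.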

Additional observations from a re-analysis of the deposited data

Results flagged for a closer look

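The effects of both ANGPTL8 viruses, ANG8 minus Ad_GFP and shANG8 minus shCtrl, differed for 16 of the 36 genes in edgeR's test of the difference itself, and each was more positive under the ANG8 virus. Log2 differences were 1.799 for Trac, 2.10 for Trbc2, 1.75 for Cd3g and 1.91 for Cd247 of the T cell receptor complex. They were 2.34 for Cd8a, 1.51 for Cd8b1, 2.15 for Cd28 and 1.61 for Lck. Among receptors they were 1.71 for Klrk1, 2.80 for Klrc1 and 1.86 for Il2rb, and among effectors 2.84 for Gzma, 1.35 for Gzmb, 1.93 for Prf1 and 1.98 for Nkg7. The fitted 7.11 for Cd226 depends on the prior count, because its shANG8 libraries hold 0 counts, and is no bound. Each difference also holds the offset between the control viruses, shCtrl minus Ad_GFP. This offset was 1.12 for Cd28, 0.84 for Nkg7, 0.78 for Cd3g, 0.71 for Trbc2 and 0.69 for Trac. It was below 0 for Klrk1 (-0.30), Gzma (-0.62) and Cd226 (-0.24), and above 0 for the others, with the lowest for Il2rb (0.106). Its part in the differences was not tested. In each of 19 other settings 9 of the 16 passed: Trbc2, Cd8a, Cd226, Lck, Klrk1, Gzma, Gzmb, Nkg7 and Il2rb. Cd28 passed in 6 settings (highest adjusted p = 0.117), Klrc1 in 8 (0.119), Prf1 in 9 (0.103), Cd3g in 11 (0.111), Cd8b1 in 11 (0.0970), Cd247 in 15 (0.0784) and Trac in 17 (0.0569). The highest adjusted p came without ANG8 replicate 1 for Prf1, Cd3g and Trac, without shCtrl replicate 2 for Cd8b1 and Cd247, and with mitochondrial share as covariate for Cd28 and Klrc1.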

How the results depend on the processing

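The count of genes that rose under the ANG8 virus was 15 and stayed between 11 and 17 over 20 alternatives, and its direction held for every called gene. Leaving out single libraries gave 11 to 16 rises and 0 to 1 falls under the ANG8 virus, 1 fall under the shANG8 virus in every case, and 9 to 16 higher effects in the difference. With the mitochondrial share as a covariate, 0 genes fell under the ANG8 virus. Under the shANG8 virus, 3 genes fell with no filter on low counts, 2 with DESeq2 and 0 in a fit of only the 2 groups compared. Between the control viruses, 1 gene was higher in shCtrl with no filter, Nkg7 (0.86, adjusted p = 0.0359). Causes were not tested. Of 18 same-numbered pairs of libraries 10 had correlated deviations above 0.1 (-0.07 to 0.26). Of 36 best matches between groups, each among 3 libraries, 27 had the same number, which points to shared structure by number. The main fit did not take the numbers as pairs, because the labels state no pairing, so such structure stays in its spread. With the replicate number as a block, 17 genes rose and 1 fell under the ANG8 virus (Cd3e at adjusted p = 0.0493, Cd3g at 0.0298 and Thy1 at 0.0424 gained, Cd28 at 0.0535 lost), 1 fell under the shANG8 virus, and 16 had higher effects in the difference. Ncr1 and Klrb1c, with 2 to 15 counts per library in Ad_GFP and ANG8, are limited by depth.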
